A study of Mus musculus with 10 samples.

Results

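The genes described here are 30 members of the coagulation and fibrinolysis system, measured on whole-liver RNA from male C57BL/6N mice. They were chosen by name from the proteins that form, restrain and dissolve a fibrin clot, with earlier results of these data known. Their probes were named through the RefSeq accession printed for each spot, with the probe of highest mean signal taken for each gene. All 30 were on the array and 27 entered the test, out of 26148 genes tested in all, of which 15133 carried a symbol. The control mice (n = 3) received a gavage of maltose, a sugar given at the calories of the 5 g/kg ethanol dose, and the ethanol mice received a gavage of 5 g/kg (n = 4) or 7 g/kg (n = 3). No untreated group was analysed here, so every difference is ethanol against maltose, and the maltose was not matched in calories to the 7 g/kg dose. The labels do not give the age of the mice or the time from gavage to collection, and nothing in them says whether each array stands for a separate mouse, so p-values measure the spread between these arrays, which may be technical in part. The study's title places the work in acute liver injury by ethanol.

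Each array carried liver cDNA in the red dye (Cy5) and a common reference, a commercial assorted mouse RNA that the labels also give as C57BL/6N liver, in the green dye (Cy3). The value used throughout is the log2 ratio of liver over reference, so 0 means equal signal and a difference of 1 between groups is a doubling. A ratio of one gene cannot be set against that of another. Over the 10 arrays, on 4 slides of which none held 1 group alone, the median liver signal lay between 121 and 219 fluorescence units over a local background of 21 to 24, and 67.3% to 86.2% of spots were well above background. No spot was saturated, and the number of arrays limits the precision. Of 6 tested hepatocyte markers, all well above background on every array, 1 rose at 5 g/kg (Ahsg, fetuin-A, by 1.23) and 2 at 7 g/kg (Ahsg by 1.10 and Ttr, transthyretin, by 0.69), and none fell. Their median difference was 0.39 at 5 g/kg and 0.17 at 7 g/kg, and their mean ratio lay between 0.23 and 0.43 in the maltose arrays, 0.71 and 0.97 in the 5 g/kg arrays and 0.46 and 0.76 in the 7 g/kg arrays; the part of this shift in the members' results was not tested. In bulk liver, fewer cells of a type and less RNA per cell cannot be told apart.

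Most clotting proteins in plasma are made by hepatocytes. Tissue factor with factor VII, and the contact factors with factors XI, IX and VIII, lead to the activation of factor X, which with factor V turns prothrombin into thrombin. Thrombin cuts fibrinogen, a protein of paired alpha, beta and gamma chains, into fibrin, which factor XIII crosslinks and plasmin later dissolves. Antithrombin, heparin cofactor II, tissue factor pathway inhibitor and the thrombomodulin and protein C system hold thrombin in check. Fibrinogen is a classic acute phase protein of the liver.

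Of the 27 tested members, 4 rose and 1 fell at 5 g/kg against maltose (limma, adjusted p under 0.05, Benjamini-Hochberg over all genes tested), where 2.21% of all genes tested rose and 1.56% fell. At 7 g/kg, 5 members rose and 3 fell, where 4.65% of all genes rose and 4.35% fell. Thbd, among those that rose at both doses, passed the background filter through its ethanol arrays alone. With all 10 arrays required above background, 25 members were tested. Of these, 3 rose and 1 fell at 5 g/kg, and 4 rose and 3 fell at 7 g/kg. All genes called there, in either direction, numbered 1014 (59.1% of them higher) and 2369 (51.9% higher). The number of genes tested under that filter is not given, so these are counts and not shares of genes tested. Between the doses, 3 members were higher at 7 g/kg than at 5 g/kg and 1 was lower, against 0.662% and 0.903% of all genes. With median centring in place of loess, the share of calls that were higher was 75.7% at 5 g/kg and 67% at 7 g/kg in place of 58.6% and 51.6%, and 52.5% in place of 42.3% between the doses. The members' median difference was -0.05 at 5 g/kg and 0.07 at 7 g/kg, beside 0.0026 and 0.012 over all genes, so the middle member barely moved and the calls came from a few genes. Both doses were compared with the same control arrays. Because the members were chosen with earlier results of these data known, the shares over all genes give context and not an independent comparison.

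The 3 fibrinogen genes lie side by side on mouse chromosome 3 and were the members that moved together, so the stretch before the start of each is shown. These are 250 bases upstream of the RefSeq transcription start on GRCm38.p6, printed 5' to 3' in the direction of the gene: Fga at chr3:83025903-83026152 on the plus strand, Fgb at chr3:83049864-83050113 on the minus strand and Fgg at chr3:83007474-83007723 on the plus strand. Capitals mark matches, on either strand, to CTGGGAA (known as the type II IL-6 response element), TTCNNNGAA (STAT), TTGCNNAA (C/EBP) and GTTAAT (HNF1); CTGGGAA and TTCNNNGAA can overlap, but none of the marked matches did.
Fga: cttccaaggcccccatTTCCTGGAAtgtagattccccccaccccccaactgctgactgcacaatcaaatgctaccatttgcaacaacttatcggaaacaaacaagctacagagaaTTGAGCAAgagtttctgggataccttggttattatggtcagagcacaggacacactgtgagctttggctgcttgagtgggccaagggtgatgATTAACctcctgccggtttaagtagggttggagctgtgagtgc
Fgb: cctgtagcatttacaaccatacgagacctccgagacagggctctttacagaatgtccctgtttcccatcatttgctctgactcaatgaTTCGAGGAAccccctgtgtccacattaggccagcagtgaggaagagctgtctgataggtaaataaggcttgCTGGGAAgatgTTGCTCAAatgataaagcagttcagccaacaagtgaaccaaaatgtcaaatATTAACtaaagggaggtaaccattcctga
Fgg: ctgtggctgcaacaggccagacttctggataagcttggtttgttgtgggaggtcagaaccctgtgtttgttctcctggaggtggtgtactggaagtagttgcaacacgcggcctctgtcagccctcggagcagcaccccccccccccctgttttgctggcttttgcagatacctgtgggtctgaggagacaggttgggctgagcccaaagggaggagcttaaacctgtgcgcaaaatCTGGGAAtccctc
The Fga stretch held a STAT match beginning 234 bases before the start, a C/EBP match at 135 and an HNF1 match at 43. The Fgb stretch held all 4 motifs, with STAT at 162, CTGGGAA at 91, C/EBP at 80 and HNF1 at 29. The Fgg stretch held only CTGGGAA, 13 bases before the start. None of the 3 held CAAAGTCCA (HNF4). Short motifs are common: over 32851 promoter stretches of the same length, 9.1% held CTGGGAA, 7.02% STAT, 9.56% C/EBP, 6.43% GTTAAT and 0.384% CAAAGTCCA. Among the 23 members with a promoter entry the counts were 4, 4, 8, 4 and 0. The member counts are of genes with a match in any of their stretches, while the shares are of single stretches, so they are unlike measures. A match is a description of letters and not a binding site.

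All 3 fibrinogen chains rose at both doses. Fga, the alpha chain, read -1.55, -1.47 and -1.50 in the 3 control arrays, -0.13, -0.36 and 0.31 in 5 g/kg arrays 1 to 3, and 0.58, 0.72 and 0.95 at 7 g/kg. The groups did not overlap and each dose step stood above the one before. The spot of 5 g/kg array 4 was marked as an outlier by the scanner software and left out, and read -1.15 when kept, the lowest of its group and still above the controls. Against maltose Fga was 1.45 higher at 5 g/kg (SE 0.156, 2.73-fold, adjusted p = 0.000234) and 2.26 higher at 7 g/kg (SE 0.156, 4.77-fold, adjusted p = 2.14e-06).

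Fgb, the beta chain, read -0.90, -1.41 and -0.81 in the maltose arrays, 0.10, 0.21, 1.22 and -0.75 in the 5 g/kg arrays, and 1.42, 1.62 and 1.76 in the 7 g/kg arrays. The 5 g/kg arrays were widely spread (SD 0.809, n = 4, beside 0.322 in controls and 0.171 at 7 g/kg), with array 4 just above the highest control. Fgb was 1.24 higher at 5 g/kg (SE 0.315, 2.36-fold, adjusted p = 0.0428) and 2.64 higher at 7 g/kg (SE 0.336, 6.23-fold, adjusted p = 0.000192).

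Fgg, the gamma chain, read -1.57 and -1.58 in control arrays 1 and 3, -0.18, -0.29, 0.44 and -1.23 in the 5 g/kg arrays, and 0.74, 0.81 and 0.98 in the 7 g/kg arrays. Control array 2 was marked and left out, and read -1.64 when kept. As for the other chains, array 4 was the lowest and array 3 the highest of the 5 g/kg group. Fgg was 1.26 higher at 5 g/kg (SE 0.305, 2.39-fold, adjusted p = 0.0374) and 2.41 higher at 7 g/kg (SE 0.321, 5.33-fold, adjusted p = 0.000374).

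After normalization, the fibrinogen ratio differences were divided between both channels. Each channel was rebuilt from a spot's ratio and mean signal, after the distribution of mean signals was made equal across arrays. For very bright spots this step can itself hold the mean signal steady and so divide a ratio change between the channels. A fall in the reference signal cannot be told apart from an effect of this step. With both channels set on a common scale, the liver signal alone of Fga, Fgb and Fgg was 1.04, 0.56 and 1.00 log2 units higher at 5 g/kg than in controls, and 1.61, 1.25 and 1.69 higher at 7 g/kg. The reference signal of the same spots was lower by 0.41, 0.68 and 0.26 at 5 g/kg, and by 0.64, 1.39 and 0.72 at 7 g/kg, although the labels name the same reference RNA for each array. For Fgb the reference read 17.19 in controls (SD 0.133, n = 3), 16.51 at 5 g/kg (SD 0.425, n = 4) and 15.80 at 7 g/kg (SD 0.105, n = 3). The part of this shift in the ratios was not tested. In a fit on the liver channel alone, quantile normalized, the 7 g/kg differences were 1.45 for Fga (adjusted p = 0.00531), 1.01 for Fgb (adjusted p = 0.0281) and 1.65 for Fgg (adjusted p = 0.023). The same fit at 5 g/kg gave 1.02 (adjusted p = 0.076), 0.40 (adjusted p = 0.696) and 0.99 (adjusted p = 0.302), none of which passed.

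The 7 g/kg calls of the 3 chains held in each alternative run. At 5 g/kg the Fgb call was lost without any one of control arrays 1 to 3, 5 g/kg arrays 1 to 3 or 7 g/kg arrays 1 and 3 (0.89 to 1.35, adjusted p 0.0538 to 0.17). The Fgg call at 5 g/kg was lost without any one of control arrays 1 to 3, 5 g/kg arrays 1 to 3 or 7 g/kg array 3 (1.00 to 1.26, adjusted p 0.0518 to 0.19); without control array 1 or 3 a single Fgg control was left, assumed to vary like the other groups. With slide as a block, Fgb was 1.06 (adjusted p = 0.0901) and Fgg 1.09 (adjusted p = 0.0838), and within single slides the 5 g/kg difference ran from 0.063 to 1.62 for Fgb and from 0.349 to 1.38 for Fgg. Both calls were also lost with scanner processed signals, with the deposited value table and with the trend and robust prior, and that of Fgb with median centring and with marked spots kept (Fgb 1.05 to 1.24, adjusted p 0.0503 to 0.193; Fgg 1.22 to 1.26, adjusted p 0.0669 to 0.129). Within slides at 7 g/kg, Fga was 2.04 to 2.45 higher, Fgb 2.57 to 2.83 higher and Fgg 2.56 higher on the single slide that had both. For Fga at 5 g/kg the within-slide values were 1.11 and 1.42, the value with the marked spot kept was 1.17 (adjusted p = 0.0123), and the deposited value table, which keeps it as well, gave 1.07 (adjusted p = 0.0855).

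**Figure D1:**
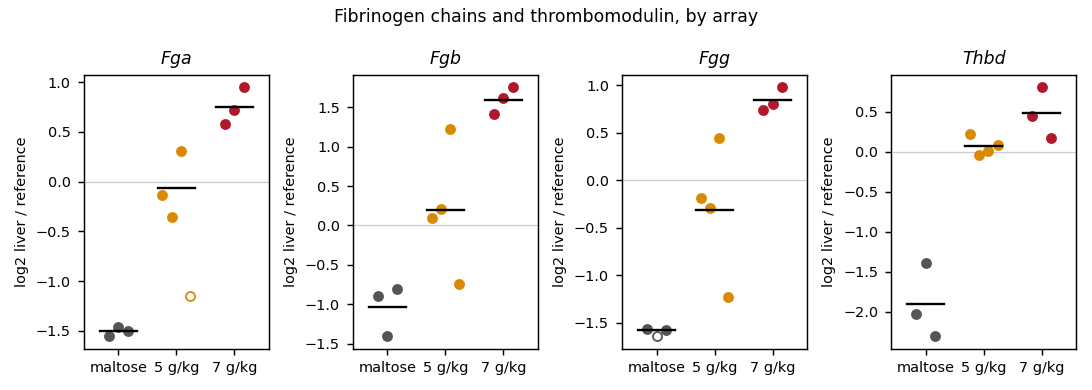
Log2 ratio of liver over reference (vertical axis) by array for Fga, Fgb, Fgg and Thbd in the maltose, 5 g/kg and 7 g/kg groups (horizontal axis); filled points are arrays used in the fit, open points are spots marked as outliers and left out, and bars are group means of filled points. The 3 fibrinogen chains step up from maltose to 7 g/kg, with one 5 g/kg array near the controls, and Thbd is low in the 3 control arrays only.

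F13b, the carrier subunit of the crosslinking factor XIII, fell at both doses. It read 0.53, 0.46 and 0.57 in the maltose arrays, -0.08, 0.01, 0.02 and 0.04 in the 5 g/kg arrays, and -0.12, -0.11 and 0.15 in the 7 g/kg arrays. Every ethanol array was below every control, and the doses overlapped. F13b was lower by 0.53 at 5 g/kg (SE 0.0981, 1.44-fold, adjusted p = 0.00781) and by 0.55 at 7 g/kg (SE 0.105, 1.47-fold, adjusted p = 0.00381). Between the doses the difference was -0.03 (95% interval -0.24 to 0.18). On the liver channel alone the difference was -0.64 at 5 g/kg (adjusted p = 0.238) and -0.52 at 7 g/kg (adjusted p = 0.286), and did not pass.

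The tested vitamin K dependent, tissue factor and common pathway members did not pass in any of the 3 comparisons by limma. An unadjusted p was under 0.05 for 2 at 5 g/kg, 0 at 7 g/kg and 1 between the doses. Of 6 such members, 4 were tested: F2 (prothrombin), F7, F10 and F3 (tissue factor, which triggers clotting with factor VII). Their differences ran from -0.22 to 0.32 at 5 g/kg and from -0.0031 to 0.11 at 7 g/kg. F10, the zymogen of the protease that makes thrombin, read -0.06, -0.12 and -0.16 in the maltose arrays, -0.25, -0.30, -0.43 and -0.34 in the 5 g/kg arrays, and -0.01, -0.05 and 0.03 in the 7 g/kg arrays. The 3 groups did not overlap, with 5 g/kg the lowest. F10 differed from maltose by -0.22 at 5 g/kg (SE 0.0906, adjusted p = 0.25) and by 0.10 at 7 g/kg (adjusted p = 0.654). Between the doses F10 differed by 0.32 (adjusted p = 0.124), and this alone passed with the trend and robust prior (adjusted p = 0.0481). F7, the partner of tissue factor, differed by -0.12 at 5 g/kg (adjusted p = 0.758) and by 0.10 at 7 g/kg (adjusted p = 0.806). F2 was the steadiest, with all 10 arrays between -0.14 and 0.00 and a 95% interval of the 7 g/kg difference from -0.20 to 0.20. F3 read -0.60, -0.45 and -0.46 in controls and -0.24, -0.34, -0.29 and 0.15 at 5 g/kg, a difference of 0.32 (SE 0.139, adjusted p = 0.267), and its second probe, well above background on 2 arrays, gave 0.11.

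F5 (the cofactor of factor X) and F9 lacked enough usable spots, because the software had marked their spot on 9 of 10 arrays. With marked spots kept, F5 read -0.09, -0.09 and 0.05 in the maltose arrays, -0.34, -0.12, -0.33 and -0.11 in the 5 g/kg arrays and -0.44, -0.50 and -0.49 in the 7 g/kg arrays. On those values the 7 g/kg arrays lay below all others, and the difference from maltose was -0.43 (SE 0.105, adjusted p = 0.0186). For F9 it was 0.24 at 5 g/kg (adjusted p = 0.221) and -0.13 at 7 g/kg (adjusted p = 0.567). A second F9 probe, with unmarked spots on 1 control, 2 5 g/kg and 2 7 g/kg arrays, gave -0.0081 and -0.47 with no test.

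Of the 6 contact and intrinsic procoagulants, all tested, F11 alone passed, at 7 g/kg. F11, the protease that activates factor IX, read -0.76, -0.10 and -0.24 in the maltose arrays, -0.35, -0.44, -0.93 and -0.58 in the 5 g/kg arrays, and 0.05, 0.36 and 0.66 in the 7 g/kg arrays. The 7 g/kg arrays stood above all others, while controls and 5 g/kg overlapped. F11 was 0.73 higher than maltose at 7 g/kg (SE 0.194, 1.65-fold, adjusted p = 0.0301) and -0.20 at 5 g/kg (SE 0.181, adjusted p = 0.683). The 7 g/kg call was lost without any one of control arrays 1 and 3 or 7 g/kg arrays 2 and 3 (0.53 to 0.79, adjusted p 0.0544 to 0.151), and with slide as a block (0.76, adjusted p = 0.0601). It was also lost with scanner processed signals and with the deposited value table. Within slides the difference was 0.153 and 0.902.

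Klkb1, plasma prekallikrein, the partner of factor XII in contact activation, read 0.60, 0.85 and 0.77 in the maltose arrays, -0.07, 0.20, 0.17 and 0.43 in the 5 g/kg arrays, and -0.19, 0.64 and -0.06 in the 7 g/kg arrays. All 5 g/kg arrays were below all controls, and 7 g/kg array 2 lay within the control range. The differences of -0.56 at 5 g/kg (95% interval -0.93 to -0.19, adjusted p = 0.102) and -0.61 at 7 g/kg (95% interval -1.01 to -0.22, adjusted p = 0.0551) missed the threshold. Without 7 g/kg array 2 they were -0.56 (adjusted p = 0.0198) and -0.87 (adjusted p = 0.00292). With slide as a block the 7 g/kg difference was -0.79 (adjusted p = 0.0241). The call at 7 g/kg also appeared without 5 g/kg array 4 (-0.61, adjusted p = 0.049).

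The other contact and intrinsic members had small differences. F12 differed by -0.11 at 5 g/kg and -0.24 at 7 g/kg (adjusted p = 0.238), and F8, the cofactor of factor IX, by -0.05 at either dose. Kng1, high molecular weight kininogen, differed by -0.12 and 0.07; mice carry a near-identical neighbour gene, Kng2, whose RNA may bind the same probe, so the value is uncertain. Vwf, the platelet-binding carrier of factor VIII made by endothelium, differed by 0.03 and 0.18. A second Vwf probe gave 0.09 and 0.38, and a second Kng1 probe -0.07 and 0.13, with no test.

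**Figure D2:**
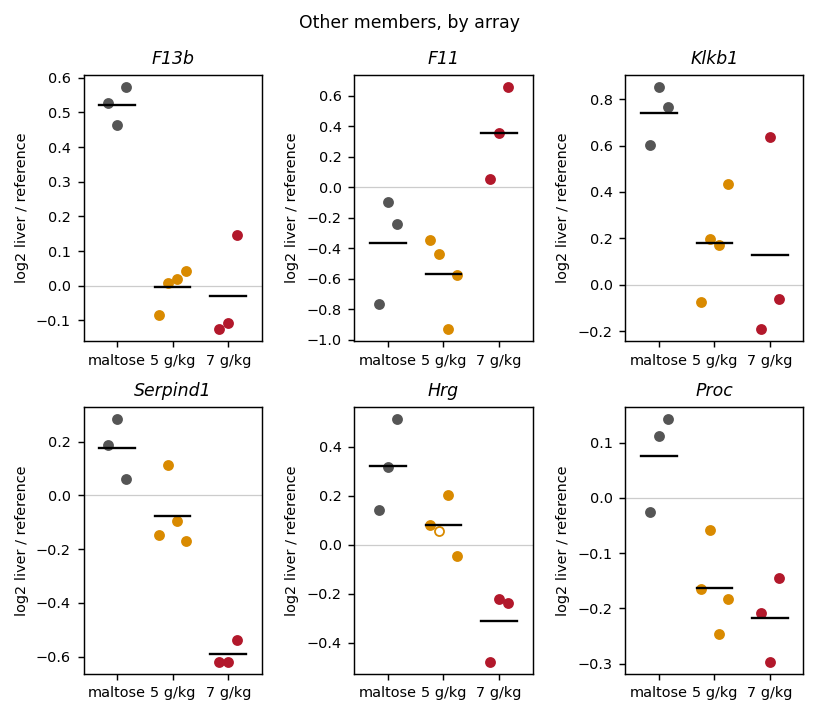
Log2 ratio of liver over reference (vertical axis, a separate scale in each panel) by array for F13b, F11, Klkb1, Serpind1, Hrg and Proc in the maltose, 5 g/kg and 7 g/kg groups; filled points are arrays used in the fit, the open point is a marked spot left out and bars are means of filled points. F13b is low at both doses, F11 is high at 7 g/kg alone, and Serpind1 and Hrg are lowest at 7 g/kg.

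Among 6 anticoagulants, all tested, thrombomodulin was higher at both doses and heparin cofactor II lower at 7 g/kg. Thbd (thrombomodulin), the endothelial receptor that turns thrombin from clotting towards activating protein C, read -2.03, -1.40 and -2.31 in the maltose arrays, 0.23, -0.04, 0.01 and 0.09 in the 5 g/kg arrays, and 0.45, 0.81 and 0.18 in the 7 g/kg arrays. Its liver spot was not well above background on any control array and was so on all ethanol arrays, so its size is a lower bound. From the brighter group's mean liver signal over the higher of each control array's own spot and its dimmest spot well above background, taken after loess and equalising of the mean signal across arrays and open to dye bias, Thbd liver signal was at least 4.12-fold higher at 5 g/kg and at least 5.34-fold higher at 7 g/kg. The measured liver means on that scale were 6.32 log2 units in controls, 8.38 at 5 g/kg and 8.75 at 7 g/kg. The bounds were taken from group means and make no allowance for the spread between arrays. These bounds are on the liver signal alone and not on the ratio; the reference signal of the same spot was 0.079 and 0.045 higher than in controls, which makes the ratio differ by less. The limma fit gave an adjusted p of 5.06e-05 at 5 g/kg and 5.94e-06 at 7 g/kg. Thbd entered that fit through its ethanol arrays alone, so these p-values rest on control values near background. Thbd was higher than maltose on 3 of 3 slides that held both groups at 5 g/kg and on 2 of 2 at 7 g/kg. Within slides, its ratio differed by 1.36 to 2.40 at 5 g/kg and by 1.85 and 2.48 at 7 g/kg. Over the alternative runs the lowest ratio differences were 1.78 at 5 g/kg and 2.19 at 7 g/kg.

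The endothelial markers that passed moved in the same direction as Thbd. Of 12 endothelial markers, 3 rose at 5 g/kg (Cdh5 by 0.59, Stab1 by 0.40 and Lyve1 by 1.29) and 4 at 7 g/kg (Pecam1 by 0.59, Cdh5 by 0.68, Tie1 by 0.51 and Lyve1 by 1.72), and none fell. The mean ratio of the 12 lay between -0.45 and -0.28 in the control arrays, -0.12 and 0.01 in the 5 g/kg arrays and -0.09 and -0.0074 in the 7 g/kg arrays, and their median difference was 0.25 and 0.18; 2 of the 12 were not well above background on every array. Their part in the Thbd result was not tested. Vwf, also endothelial, did not pass at either dose.

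Serpind1 (heparin cofactor II), a liver-made inhibitor of thrombin, read 0.19, 0.28 and 0.06 in the maltose arrays, -0.15, 0.11, -0.09 and -0.17 in the 5 g/kg arrays, and -0.62, -0.62 and -0.54 in the 7 g/kg arrays. The 7 g/kg arrays lay together below all others, with 5 g/kg between them and overlapping controls. It was lower by 0.77 at 7 g/kg (SE 0.109, 1.70-fold, adjusted p = 0.000459), with -0.90 and -0.60 within slides, and this call held in each alternative run. At 5 g/kg the difference was -0.25 (SE 0.102, adjusted p = 0.235).

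The other 4 anticoagulants did not pass at either dose. Proc, the zymogen of protein C, read -0.03, 0.11 and 0.14 in the maltose arrays, -0.16, -0.06, -0.25 and -0.18 in the 5 g/kg arrays and -0.21, -0.30 and -0.15 in the 7 g/kg arrays. No ethanol array reached the controls, and the differences were -0.24 (adjusted p = 0.221) and -0.29 (95% interval -0.51 to -0.08, adjusted p = 0.097). Pros1 (protein S, the cofactor of activated protein C) differed by -0.32 and -0.14, with control array 1 at 0.49 well above every other array. Serpinc1 (antithrombin, the main inhibitor of thrombin and factor X) differed by -0.05 and -0.02, with 95% intervals from -0.31 to 0.20 and from -0.28 to 0.24. Tfpi (tissue factor pathway inhibitor) differed by -0.07 and -0.08. Second probes were not tested. That of Tfpi, well above background on 8 arrays, gave 0.32 and 0.16, opposite in direction to the first. The second probe of Serpinc1 gave -0.03 and 0.20, and that of Pros1 -0.13 and -0.08.

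On the plasmin side, 6 members were tested and Hrg fell at 7 g/kg. Hrg, histidine-rich glycoprotein, a liver protein that binds plasminogen, fibrinogen and heparin, read 0.14, 0.32 and 0.51 in controls, 0.08, 0.20 and -0.05 in 5 g/kg arrays 1, 3 and 4, and -0.48, -0.22 and -0.24 at 7 g/kg. The 7 g/kg arrays were below all others; 5 g/kg array 2 was marked and left out. Hrg was lower by 0.63 at 7 g/kg (SE 0.126, 1.55-fold, adjusted p = 0.00606), with -0.79 and -0.75 within slides, and -0.46 on the liver channel alone, where it did not pass (adjusted p = 0.297). At 5 g/kg it differed by -0.24 (adjusted p = 0.389).

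The other plasmin members stayed within 0.3 of maltose at both doses. Plg (plasminogen, the precursor of plasmin) differed by 0.05 and 0.13, with 95% intervals from -0.15 to 0.24 and from -0.08 to 0.33. Plat and Plau, its tissue and urokinase activators, differed by 0.11 at 5 g/kg, and by 0.04 and 0.10 at 7 g/kg; the Plau spot was well above background on 5 of 10 arrays only. Plaur, the urokinase receptor, differed by 0.22 and 0.26, with 7 g/kg array 2 at 0.60 above all others. A second Plaur probe gave -0.05 and 0.0036, with no test. The second probe of Plat, well above background on 7 arrays, gave -0.12 and -0.22, and that of Plg 0.05 and 0.05. Habp2, a protease that activates factor VII and urokinase, differed by 0.06 and 0.12.

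Of the 2 inhibitors of fibrinolysis, 1 was tested. Serpinf2 (antiplasmin, the fast inhibitor of plasmin) differed by -0.24 at 5 g/kg (adjusted p = 0.378) and -0.11 at 7 g/kg (adjusted p = 0.741). Cpb2, the carboxypeptidase that trims plasminogen binding sites off fibrin, had its spot marked on 9 of 10 arrays. With marked spots kept it read -0.55, -0.46 and -0.59 in the maltose arrays, -0.19, -0.29, 0.10 and 0.07 in the 5 g/kg arrays, and 0.24, 0.88 and 0.58 in the 7 g/kg arrays, so the 3 groups did not overlap. On those values it was 1.10 higher at 7 g/kg (SE 0.154, 2.14-fold, adjusted p = 0.000408) and 0.45 at 5 g/kg (SE 0.144, adjusted p = 0.11). Of the single unmarked spot, on 7 g/kg array 3, the ratio was 0.59.

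**Figure D3:**
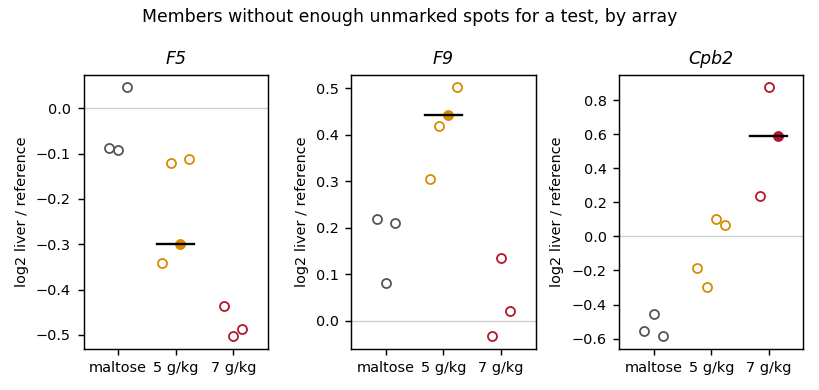
Log2 ratio of liver over reference (vertical axis) by array for F5, F9 and Cpb2, whose spots were marked as outliers on 9 of 10 arrays (open points); the filled point in each panel is the single unmarked spot, and the bar is drawn at that spot. Cpb2 steps up from maltose to 7 g/kg, F5 is lowest at 7 g/kg, and F9 is highest at 5 g/kg.

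Between the doses, Fga, Fgb and F11 were higher at 7 g/kg than at 5 g/kg and Serpind1 was lower. Fga was 0.81 higher (SE 0.156, 1.75-fold, adjusted p = 0.0194), Fgb 1.40 (SE 0.315, 2.64-fold, adjusted p = 0.0398) and F11 0.93 (SE 0.181, 1.90-fold, adjusted p = 0.0182), and Serpind1 was lower by 0.52 (SE 0.102, 1.43-fold, adjusted p = 0.0191). Fgg, at 1.16, just missed (SE 0.269, adjusted p = 0.0518), and it passed without 5 g/kg array 3 (1.41, adjusted p = 0.00687) or array 4 (0.85, adjusted p = 0.0285). Thbd differed by 0.41 (adjusted p = 0.453).

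Each of these dose calls was lost without one or another array. The Fgb call was lost without any one of control arrays 1 and 3, 5 g/kg arrays 1, 2 and 4 or 7 g/kg arrays 1 to 3 (1.09 to 1.49, adjusted p 0.0528 to 0.149), and with slide as a block (1.38, adjusted p = 0.0546; 0.393 to 2.51 within slides). The Fga call was lost without any one of 5 g/kg arrays 1 and 2 or 7 g/kg arrays 2 and 3 (0.66 to 0.82, adjusted p 0.0587 to 0.0825). The F11 call was lost without 7 g/kg array 2 (0.93, adjusted p = 0.0624) or array 3 (0.78, adjusted p = 0.0908). The Serpind1 call was lost without 5 g/kg array 2 or 7 g/kg arrays 1 or 2 (-0.50 to -0.45, adjusted p 0.0632 to 0.0837). On the liver channel alone Fga differed by 0.43 (adjusted p = 1) and Fgb by 0.60 (adjusted p = 0.646). The Serpind1 call was lost there too, and with median centring, while the F11 call held in both.

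**Figure D4:**
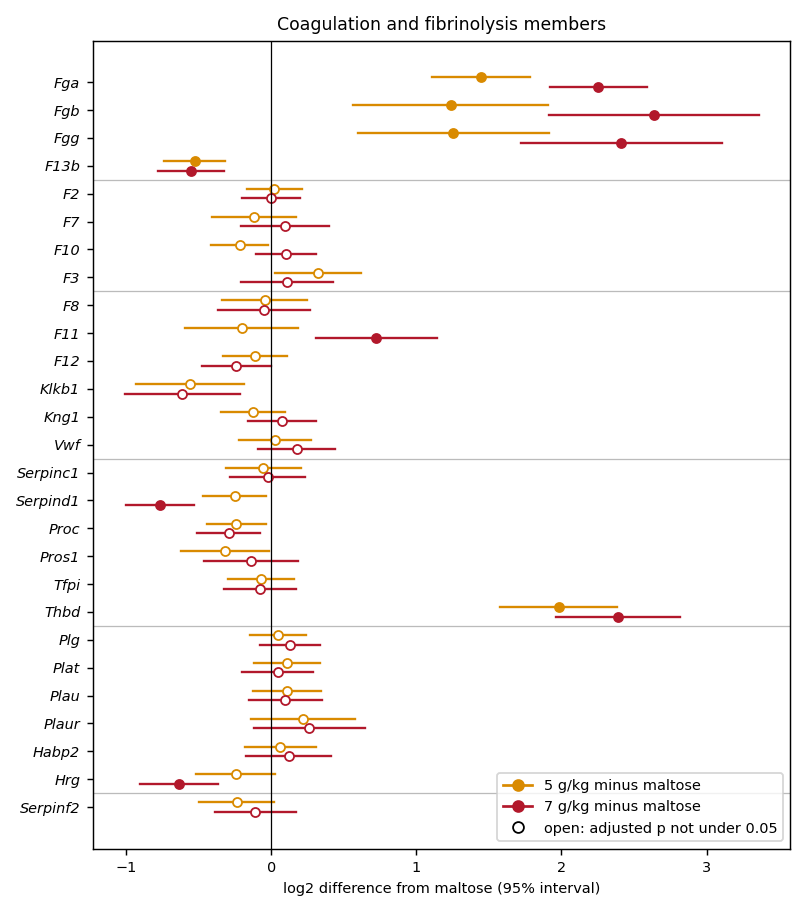
Log2 difference from maltose (horizontal axis) with its 95% interval, unadjusted, for the 27 tested members in rows grouped by role, at 5 g/kg and 7 g/kg; filled points have an adjusted p under 0.05. The 3 fibrinogen chains and Thbd lie far to the right at both doses, F13b lies left at both, F11 lies right and Serpind1 and Hrg left at 7 g/kg, and most other members sit near 0; the Thbd points are fitted against controls not well above background.

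Further genes of the system came from lists by role. In the vitamin K cycle and secretion of clotting factors (5 of 5 tested), Vkorc1, the reductase that warfarin blocks, fell by 0.35 at 5 g/kg (adjusted p = 0.0441) and by 0.56 at 7 g/kg (adjusted p = 0.0018). Ggcx, the carboxylase that the cycle feeds, rose by 0.59 at 7 g/kg (adjusted p = 0.0132) and differed by 0.40 at 5 g/kg (adjusted p = 0.114). The list's median difference was 0.15 and 0.20.

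Of 23 further regulators, 19 were tested, with 1 higher at 5 g/kg, and 3 higher and 1 lower at 7 g/kg. S100a10, which with annexin A2 binds plasminogen at cell surfaces, rose by 0.64 and 0.47. At 7 g/kg, C4bp, a complement regulator that binds protein S, rose by 0.66 (n = 2 against 3), Vtn (vitronectin, an adhesive plasma protein) rose by 0.52, and Apoh (beta-2-glycoprotein I) fell by 0.47. The median difference of the 19 was 0.10 and 0.04.

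Of 7 receptors of clotting proteases and platelets, 4 were tested. F2r, the thrombin receptor PAR1, rose by 0.57 at 5 g/kg (adjusted p = 0.0259) and by 1.20 at 7 g/kg (2.30-fold, adjusted p = 9.66e-05), and was 0.64 higher at 7 g/kg than at 5 g/kg (adjusted p = 0.0244). None of the 7 tested platelet markers passed by limma (0 at 5 g/kg and 2 at 7 g/kg had an unadjusted p under 0.05), and none of the 6 tested Kupffer cell markers did (0 and 1). Of 7 tested neutrophil markers, S100a8 and S100a9 were higher at 7 g/kg and none passed at 5 g/kg. S100a9 rose by 1.41 (adjusted p = 0.00152). S100a8 was not well above background on any control array and entered the fit through its ethanol arrays alone. By the same bound on group means, its liver signal was at least 2.41-fold higher at 7 g/kg (limma adjusted p of the ratio = 0.00046). The other 5, among them the granule genes Mpo and Elane, lay between -0.13 and 0.17 at 7 g/kg, and the list's median difference was 0.10 at 5 g/kg and 0.11 at 7 g/kg.

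Of 8 stellate cell and fibroblast markers, Dcn rose by 0.74 (adjusted p = 0.0102) and Hgf by 0.70 (adjusted p = 0.00216) at 5 g/kg. At 7 g/kg Hgf alone passed, 0.62 higher (adjusted p = 0.00322), and the list's median difference was 0.21 and 0.33. Their mean ratio lay between -0.33 and -0.07 in the maltose arrays, 0.08 and 0.22 in the 5 g/kg arrays and 0.10 and 0.19 in the 7 g/kg arrays, so every ethanol array stood above the controls. Of 3 tested red cell markers, Alas2 rose by 0.63 at 7 g/kg (adjusted p = 0.0365). Of 6 cholangiocyte markers, Spp1 fell by 0.48 at 5 g/kg (adjusted p = 0.0187). None of the 4 tested exocrine pancreas markers passed by limma (0 had an unadjusted p under 0.05 at either dose). The part of these cell types in the members' results was not tested.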

How the data were processed

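Liver RNA from 3 maltose, 4 5 g/kg and 3 7 g/kg samples was hybridised on 2-colour Agilent arrays. Per the file headers and the submitters' processing notes, the authors scanned with Agilent Feature Extraction 11.5.1.1. The deposited scanner files gave median intensity per spot, its local background, outlier and background marks, and the log10 ratio of red over green. The deposited value table held log2 ratios: over 40506 matched probes its slope on the scanner's log10 ratio was 3.32 to 3.34 (r 0.940 to 1.00), with array medians from -0.072 (7 g/kg array 2) to 0.076 (7 g/kg array 3), and direction liver over reference; it served as an alternative. The deposited 0 or 1 marks (well above background, outlier) are of another kind than intensity and were used as filters.

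Median intensities were background-corrected (normexp, offset 50), loess-normalized within each array without control and outlier-marked spots, and marked spots were left out. Spots of a probe were averaged. Probes had to be well above background in the liver channel on at least 3 arrays, with at least 2 values per group. Of 41174 probes, 24375 were named through RefSeq accessions (GRCm38.p6 table). The tests were two-sided in limma 3.58.1 (R 4.3.3), 1 fit of 3 group means over all 10 arrays, with Benjamini-Hochberg adjustment over 26148 genes at a threshold of 0.05; the fit was tested on simulated data. Groups came from the sample titles.

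The members and lists were chosen with earlier results of these data known, and the motifs and printed promoters after the values were seen. All members are described, with values per array for those that passed or that the text turns on; up to 6 genes that passed are named from each pathway list, and the cell type marker lists are given by counts with the genes that passed. One gene of these lists is not reported here. Alternatives were other background, normalization, channel, value source, probe filters and summaries, outlier-marked spots kept, prior, slide or replicate block, threshold and leaving out each array.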

Additional observations from a re-analysis of the deposited data

Results flagged for a closer look

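Serpinf2, the antiplasmin gene, had 1 array far from the others of its group: 5 g/kg array 4 read -0.59, while the other 3 arrays of that dose read -0.10, -0.15 and -0.15. The highest or lowest array was compared with the rest in 24 groups of 4 values, 1 of which stood out, and chance alone marks about 1 in 20.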

How the results depend on the processing

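No member difference that passed the test, as reported or in an alternative, changed sign between the reported value and that alternative. Calls of Fga, Fgb, Fgg and Serpind1 at 7 g/kg passed in each alternative, as did Thbd at both doses wherever it was tested (it was not tested when all 10 arrays had to be above background). On the Cy5 channel alone the members called were 1 higher and 0 lower at 5 g/kg, 5 and 1 at 7 g/kg and 1 and 0 between the doses, with 119, 593 and 47 of all genes called. Scanner processed signals gave 2 members higher at 5 g/kg and 0 in either direction between the doses, with 518 and 114 of all genes; the deposited value table gave 1 and 0, with 583 and 137. Trend and robust prior gave 2 members higher at 5 g/kg (986 of all genes called) and 5 lower at 7 g/kg (2409). Slide as a block gave 2 higher at 5 g/kg (905 of all genes called). Keeping marked spots gave 5 members higher between the doses (452 of all genes called), and median centring 0 lower (316). The main fit called 988 of all genes at 5 g/kg, 2353 at 7 g/kg and 409 between the doses. An adjusted p of 0.1 gave 5 members lower at 7 g/kg, with 3212 of all genes called there. At that threshold 1549 of all genes were called at 5 g/kg and 622 between the doses. Deviations of arrays with the same replicate number correlated at -0.20 to 0.20 and were best with their own number in 1 of 9 pairs. These values gave no sign that the numbers pair the arrays, but so few arrays cannot exclude pairing. The replicate block gave 2 members lower at 5 g/kg (Klkb1 gained, 934 of all genes). It gave 5 higher and 4 lower at 7 g/kg (2316) and 4 higher and 1 lower between the doses (288). Leaving out each array in turn gave 2 to 4 members higher and 1 to 2 lower at 5 g/kg, 4 to 5 and 3 to 4 at 7 g/kg, and 0 to 4 and 0 to 1 between the doses, with 466 to 1064, 1501 to 2357 and 202 to 419 of all genes; the lone lowest values came without control array 1 (466 and 1501) and 7 g/kg array 1 (202). Between the doses, 0 members passed in limma with scanner processed signals, with the deposited value table and without 7 g/kg array 2; there 7, 9 and 9 members had an unadjusted p under 0.05, beside 8 in the fit of all arrays. The cause of these shifts was not tested.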
